A study of Homo sapiens with 6 samples.

Results

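The transcripts described here are those of 10 genes: the homeobox genes DLX1, DLX2, DLX5, DLX6, MSX1 and MSX2, and the inhibitor of DNA binding genes ID1, ID2, ID3 and ID4. They are 10 of the 16571 gene symbols in the count table, and each had 1 row and passed the filter on low counts, which 10695 genes passed. The genes were chosen by name as BMP-responsive factors, with their counts in the shUSP39 and pGIPZ-NC libraries already known. Their differences between the groups are therefore given as a description, and no p-value is given for any of them. The libraries are RNA-seq of the established human cell line A2780, which the labels describe as serous ovarian cancer. Both groups were made from this line by lentiviral infection: 3 libraries carried pGIPZ-NC, the control form of a short hairpin vector, and 3 carried shUSP39, a hairpin against the spliceosomal protein USP39. The study's methods describe stable lines made by viral infection and then puromycin selection, so each group represents an infected and selected population. Which of the study's hairpins was used is not given in the labels, and the knockdown was not checked in these libraries because the USP39 transcript was not analysed here.

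Bone morphogenetic proteins (BMPs) are secreted ligands that bind paired receptor kinases at the cell surface. The receptors phosphorylate SMAD1, SMAD5 and SMAD9, which enter the nucleus with SMAD4 and switch on target genes. DLX and MSX proteins are homeodomain transcription factors that pattern the limbs, the face and the nervous system, and DLX5, DLX6 and MSX2 also act in bone formation. ID proteins have a helix-loop-helix domain without a DNA-binding region, and they hold E proteins away from DNA.

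Libraries held between 28294819 and 32939264 counts. A count was present in 12662 to 12809 genes of the pGIPZ-NC libraries, but in 12819, 15446 and 14890 genes of shUSP39 replicates 1, 2 and 3, so that replicates 2 and 3 stood apart. The labelled cell type was compared with its markers. Levels are in CPM (counts per 1000000 of the library total), and a value after ± is the SD over the 3 libraries of a group (n = 3). PAX8 and EPCAM, which mark ovarian epithelium, were near 0, with at most 0.204 and 0.198 CPM in any library, whereas KRT18 was at 22.2 ± 1.69 CPM in pGIPZ-NC cells and 33.1 ± 3.03 CPM in shUSP39 cells. MUC16 had 5, 1 and 1 counts in pGIPZ-NC replicates 1, 2 and 3 and 6, 150 and 71 counts in shUSP39 replicates 1, 2 and 3, and its higher counts were in the libraries in which more genes had a count. KRT8, the keratin that pairs with KRT18, had 28, 37 and 26 counts in pGIPZ-NC and 3, 0 and 0 in shUSP39, at least 9.85-fold lower against a floor of 3 counts per library (adjusted p = 4.1e-05, edgeR). Of 7 epithelial markers, 6 had a row and 3 were tested, of which 1 (KRT18) was higher and 1 (KRT8) lower in shUSP39. KRT7, also tested, was at 0.255 ± 0.203 CPM in pGIPZ-NC cells and 0.347 ± 0.153 CPM in shUSP39 (adjusted p = 0.695, edgeR). WT1 was not analysed here. The summed level of the 6 with a row, most of it from KRT18, was 21.9 to 25.3 CPM in pGIPZ-NC cells and 32.8 to 39.7 CPM in shUSP39. Leukocyte and endothelial markers (PTPRC, CD14, PECAM1 and CDH5) had means of at most 0.222 CPM in both groups. The fibroblast markers COL1A2, LUM and DCN were lower in shUSP39, 3 of the 4 tested markers of other cells. The summed level of the markers of other cells was 1114 to 1179 CPM in pGIPZ-NC cells and 452 to 473 CPM in shUSP39. Most of this sum came from COL1A2, with means of 1149 and 462 CPM. The part of these markers in the results below was not tested.

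The 10 genes lie at 8 places in the genome. DLX6 (chr7:96634865-96640352, plus strand, GRCh37) and DLX5 (chr7:96649708-96654262, minus strand) face each other across 9355 bases. DLX1 (chr2:172949468-172954405, plus strand) and DLX2 (chr2:172964166-172967628, minus strand) do so across 9760 bases, each pair with the ends of its genes towards each other. All 4 DLX genes have 3 exons. MSX1 (chr4:4861392-4865663) and MSX2 (chr5:174151585-174157899) have 2 exons and lie on the plus strand. ID1 (chr20:30193086-30194318), ID2 (chr2:8818975-8824591) and ID4 (chr6:19837601-19842428) lie on the plus strand and ID3 (chr1:23884417-23885992) on the minus strand. The antisense RNA gene DLX6-AS1 covers the whole of DLX6, while ID2-AS1 and LNC-LBCS overlap 3020 bases of ID2 and 1711 bases of ID4. None of these antisense genes was analysed here, and since use of strand in the counting is not stated, their reads cannot be told apart from those of DLX6, ID2 and ID4.

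The start sites were examined for short sequences, a property that the choice of genes did not use. In the 250 bases before the annotated start, the CCAAT box, read as CCAAT or its reverse complement ATTGG, was found in 9 of 10 genes, against 34.3% of 19521 promoters of the same length. ID3 was the gene without one. The sites nearest to the start are shown for the 6 homeobox genes. ID1, ID2 and ID4, which differed less between the groups, also held a box. Each stretch is 30 bases from GRCh37, read 5′ to 3′ on the strand of the gene, with the box in capitals. The DLX5 stretch lies in the 5′ UTR of a longer annotated transcript of DLX5, in its first exon, and the DLX1 stretch lies in the 5′ UTR of a longer DLX1 transcript. The other stretches shown lie upstream of the gene.
DLX5 (chr7:96654203-96654232): ccgaggccctggCCAATagaaccagatcca
DLX6 (chr7:96634819-96634848): gggggcgactgaCCAATggggaggcactgc
DLX1 (chr2:172950148-172950177): caagacagcggaCCAATcagctccgccagc
DLX2 (chr2:172967688-172967717): cgtttgcttctgATTGGctgttgctaggtg
MSX1 (chr4:4861323-4861352): cctcgcgcgctgATTGGccgccgccccgct
MSX2 (chr5:174151503-174151532): ggcccggcgcggATTGGcggcgcgcgtctc

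The first base of these boxes lay 77 bases before the start in DLX5 and in DLX2, 75 in DLX1, 70 in MSX2, 57 in MSX1 and 34 in DLX6. DLX6, MSX1, MSX2 and DLX1 held a second box further upstream. For comparison, the 130 bases before the start of ID3, the gene with the highest level per kilobase, are printed without capitals because they hold no box.
ID3 (chr1:23885993-23886122): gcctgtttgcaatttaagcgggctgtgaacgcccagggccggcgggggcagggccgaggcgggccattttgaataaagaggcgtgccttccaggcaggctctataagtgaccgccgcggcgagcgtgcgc

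Other motifs were present in few of the 10 promoters. Both strands were searched for each. GGCGCC, a GC-rich element bound by SMAD1 and SMAD5, was found in DLX6 and in 22.3% of all promoters. The palindrome GTCTAGAC of the SMAD box was found in none of the 10 and in 0.159% of all. TAATTG, the core of DLX and MSX binding sites, was found in DLX5, 39 to 34 bases before the start, and in 5.11% of all promoters. The E-box CACGTG was found in DLX2 (7.87% of all), the cyclic AMP element TGACGTCA in DLX6 (2.43%) and the TATA box TATAAA in ID1 and ID4 (9.23%). The STAT core TTCNNNGAA was found in ID3 (5.61%), and the interferon response core TTCNNTTTC in none (6.14%). The promoters of the 10 genes had a median GC content of 67.0%, between 55.2% in DLX5 and 78.8% in ID4, against a median of 63.2% over all promoters. A match describes these letters in these windows only.

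DLX5, DLX6, MSX1 and MSX2 had the larger differences between the groups. Counts are given in the order of replicates 1, 2 and 3. DLX5 is a homeodomain factor of bone and craniofacial development. Its count was 0 in each of the 3 pGIPZ-NC libraries and 217, 200 and 202 in the 3 shUSP39 libraries. The groups did not overlap. In a bulk population, more cells with DLX5 transcripts and more DLX5 RNA per cell cannot be told apart. DLX5 stood at 6.77 ± 0.136 CPM in shUSP39, at least 70.0-fold higher than a floor of 3 counts in each pGIPZ-NC library, which corresponds to 0.0911 to 0.106 CPM. The floor covers counting error only.

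DLX6, the partner of DLX5 on chromosome 7, was already present in the control cells. It had 200, 187 and 139 counts in the pGIPZ-NC libraries and 442, 489 and 417 in the shUSP39 libraries. All shUSP39 libraries were above all pGIPZ-NC libraries. The mean was 5.60 ± 0.649 CPM in pGIPZ-NC cells and 14.8 ± 1.24 CPM in shUSP39, a ratio of 2.64 and a log2 fold change (log2 FC) of 1.37 (SE 0.14).

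MSX1, a homeodomain repressor of tooth and palate development, had 32, 53 and 42 counts in pGIPZ-NC and 207, 272 and 202 counts in shUSP39. The groups lay well apart, and shUSP39 replicate 2 was the highest library. The mean was 1.36 ± 0.326 CPM in pGIPZ-NC cells and 7.46 ± 1.34 CPM in shUSP39, a ratio of 5.48 and a log2 FC of 2.43 (SE 0.22). Among the 9 genes with a count in both groups, this was the largest ratio.

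MSX2 acts in skull and bone growth. It had 120, 173 and 135 counts in pGIPZ-NC against 385, 382 and 385 in shUSP39. The shUSP39 libraries were closely similar to each other and did not overlap with pGIPZ-NC. The mean was 4.58 ± 0.782 CPM in pGIPZ-NC cells and 12.6 ± 0.490 CPM in shUSP39, a ratio of 2.75 and a log2 FC of 1.43 (SE 0.15).

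**Figure D1:**
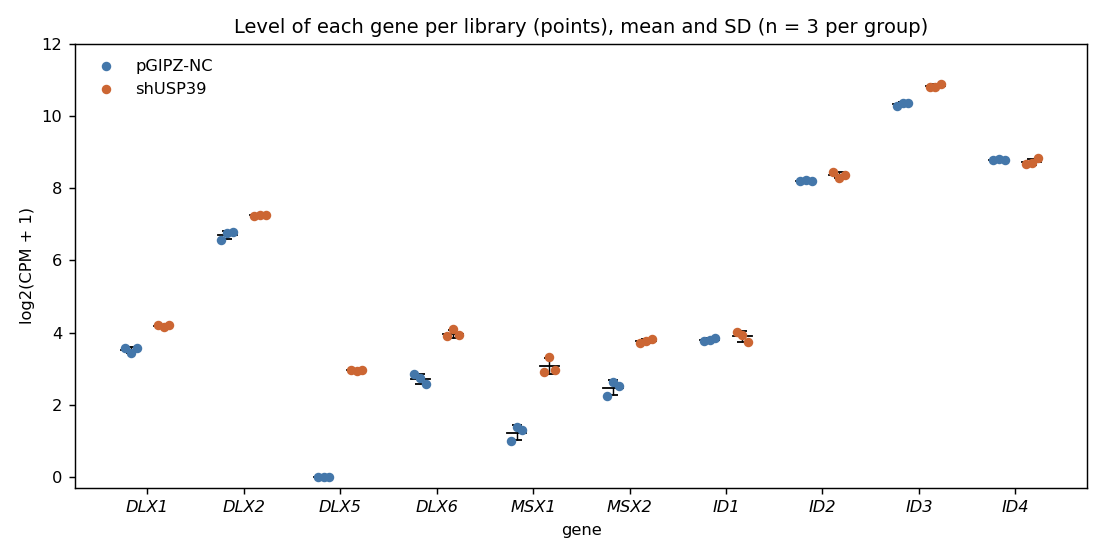
Level of each of the 10 genes as log2(CPM + 1) on the vertical axis, with 1 point per library, a bar at the mean and SD whiskers (n = 3 per group), pGIPZ-NC in blue and shUSP39 in orange. DLX5 sits at 0 in the 3 pGIPZ-NC libraries, the homeobox genes are separated between groups, and ID1 and ID4 overlap.

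DLX1 and DLX2, which specify interneurons of the forebrain, differed less. DLX1 had 349, 321 and 309 counts in pGIPZ-NC and 552, 505 and 515 in shUSP39. DLX2 had 3016, 3541 and 3077 counts in pGIPZ-NC and 4783, 4576 and 4468 in shUSP39. Neither gene overlapped between the groups. DLX1 was at 10.5 ± 0.653 CPM in pGIPZ-NC cells and 17.2 ± 0.432 CPM in shUSP39, with a log2 FC of 0.69 (SE 0.11). DLX2 was at 103 ± 8.43 CPM and 151 ± 0.728 CPM, with a log2 FC of 0.53 (SE 0.05).

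DLX2 supplied most of the DLX counts in both groups, without regard to transcript length. In the summed CPM of all 6 DLX genes in the table, which include DLX3 and DLX4, its share was 85.9% ± 1.40 in pGIPZ-NC and 77.8% ± 0.710 in shUSP39. The share of DLX6 was 4.69% ± 0.845 and 7.59% ± 0.565, and that of DLX5 was 0% and 3.48% ± 0.100. The summed level of the 4 chosen DLX genes was 119 ± 7.64 CPM in pGIPZ-NC cells and 190 ± 1.21 CPM in shUSP39. That of the MSX genes was 5.94 ± 1.11 CPM and 20.1 ± 1.51 CPM.

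The ID genes differed from each other. ID3, which like its relatives binds E proteins, was the ID gene with the highest level. It had 39944, 43526 and 37027 counts in pGIPZ-NC and 56959, 54464 and 56247 in shUSP39. All shUSP39 libraries were higher. The mean was 1290 ± 44.3 CPM in pGIPZ-NC cells and 1835 ± 67.1 CPM in shUSP39, a ratio of 1.42 and a log2 FC of 0.48 (SE 0.03).

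ID2, which restrains differentiation in several lineages, had 9521, 9784 and 8266 counts in pGIPZ-NC and 10994, 9377 and 9680 in shUSP39. Scaled to the library totals these were 292 to 297 CPM in pGIPZ-NC cells and 310 to 346 CPM in shUSP39, so the groups were separate but close. The log2 FC was 0.13 (SE 0.04).

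ID1, widely used as a readout of BMP signalling, had 405, 421 and 383 counts in pGIPZ-NC and 485, 430 and 364 in shUSP39. These counts are for 1 of its 2 current RefSeq messenger RNAs, so neither level nor difference may be that of the whole gene. The groups overlapped, with shUSP39 replicate 3 below all pGIPZ-NC libraries. The means were 12.96 ± 0.510 CPM and 13.95 ± 1.46 CPM, with a log2 FC of 0.08 (SE 0.11).

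ID4 had 14267, 14643 and 12556 counts in pGIPZ-NC and 12857, 12629 and 13414 in shUSP39. The groups also overlapped, since shUSP39 replicate 3 was above and replicates 1 and 2 were below all pGIPZ-NC libraries in CPM. The means were 443.6 ± 0.992 CPM and 426 ± 26.8 CPM, with a log2 FC of -0.08 (SE 0.04). Without regard to length, ID3 made up 63.2% ± 0.776 of the summed ID counts in pGIPZ-NC and 70.5% ± 0.387 in shUSP39, and the share of ID4 was 21.7% ± 0.442 and 16.4% ± 0.510.

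Counted over the 10 genes, 8 passed an adjusted p of 0.05 with a higher level in shUSP39, where 16.1% of all tested genes did, and 0 passed with a lower level, where 17.5% did. The 4 genes DLX5, DLX6, MSX1 and MSX2 were also over 2-fold higher, as were 4.53% of all tested genes, while 2.28% were over 2-fold lower. All shUSP39 libraries were above all pGIPZ-NC libraries in 8 of the 10 genes and in 24.1% of tested genes, and below them in none of the 10 and in 20.3% of tested genes. The median log2 FC was 0.61 over the 10 genes, 1.03 over the DLX genes, 1.93 over the MSX genes and 0.11 over the ID genes, against 0.01 over all tested genes. DLX5, whose fitted value depends on a prior count, enters these medians only by its rank. With 0 counts in pGIPZ-NC, DLX5 passed the filter through shUSP39 alone and could only be called higher. Because the genes were chosen with this contrast known, nothing is read from these counts.

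**Figure D2:**
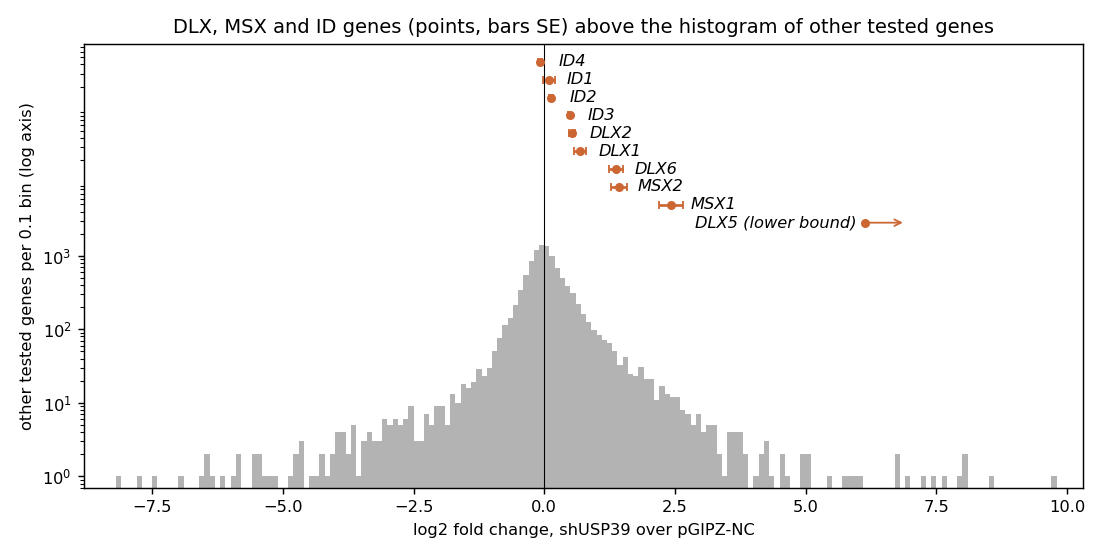
Log2 fold change of shUSP39 over pGIPZ-NC on the horizontal axis for the 10 genes (orange points with SE, placed at arbitrary heights) above a histogram of the other tested genes (grey, number per bin of 0.1 on a log axis). DLX5 is drawn at its lower bound with an arrow, MSX1 stands at 2.43, and ID1 and ID4 lie at 0.08 and -0.08 beside the middle of the histogram.

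The log2 FC was also computed with shUSP39 replicates 2 and 3 left out, a choice made after seeing the data. This compares 1 shUSP39 library, replicate 1, with 3 pGIPZ-NC libraries, so the spread comes from pGIPZ-NC alone and the lone library is assumed to vary like them. The log2 FC was then 1.29 for DLX6, 2.23 for MSX1, 1.38 for MSX2, 0.70 for DLX1, 0.52 for DLX2 and 0.45 for ID3. These values were close to those from all 6 libraries, but those of the other ID genes moved by over 1.5 times, to 0.213 for ID1, 0.21 for ID2 and -0.16 for ID4. With single libraries left out, ID4 passed the adjusted p with a lower level without shUSP39 replicate 3 (-0.14), and ID2 no longer passed without pGIPZ-NC replicate 3 (0.11) or without shUSP39 replicate 1 (0.09).

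To compare levels between genes, CPM was divided by the length in kilobases of the longest coding transcript in the annotation. In pGIPZ-NC the order of these levels per kilobase was ID3 (1358), ID2 (144), ID4 (115), DLX2 (42.1), ID1 (10.5), DLX1 (4.46), DLX6 (2.43), MSX2 (2.09), MSX1 (0.702) and DLX5 (0). DLX6 and MSX2 were the only neighbours in this order whose libraries overlapped. In shUSP39 the first 8 places were unchanged, and DLX5 (4.77) stood above MSX1 (3.84), with no overlap between neighbours. The order rests on the length used: with the shortest transcript, ID2 was at 473, DLX1 at 13.8, ID1 at 13.2 and DLX6 at 8.41 CPM per kilobase in pGIPZ-NC. DLX1, MSX2 and ID1 each have 2 current RefSeq messenger RNAs but 1 row in the table, so their levels may be too low. Their places in this order, their differences and the shares within the DLX and ID genes may not hold for the whole genes.

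The other genes of the pathway were examined next, in lists written by role, with earlier results of these data known. Of 75 genes, 65 had a row and 36 were tested, of which 12 (33.3%) were higher, 8 (22.2%) were lower and 16 did not pass the quasi-likelihood test of edgeR, adjusted after Benjamini and Hochberg. Over all tested genes these shares were 16.1% and 17.5%. With shUSP39 replicates 2 and 3 left out, 17 of 44 tested genes passed, with the spread again supplied by pGIPZ-NC alone. The median log2 FC of the 36 genes was 0.22.

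Both other DLX genes that were tested rose. DLX3, which acts in skin and tooth, had 9, 19 and 12 counts in pGIPZ-NC and 82, 95 and 49 in shUSP39, with a log2 FC of 2.49 (SE 0.39, adjusted p = 9.7e-06). DLX4 had 6, 10 and 21 counts in pGIPZ-NC and 60, 72 and 42 in shUSP39, with a log2 FC of 2.20 (SE 0.45, adjusted p = 0.00036), which was 2.90 without pGIPZ-NC replicate 3. The groups did not overlap in either gene, and both had a mean under 3 CPM in every group.

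Among 5 tested BMP ligands, 1 rose, 2 fell and 2 did not pass. BMP5 fell from 2.68 ± 0.191 to 0.177 ± 0.188 CPM, a log2 FC of -3.93 (SE 0.50, adjusted p = 5.7e-07), which was -5.02 without shUSP39 replicate 3. BMP7 fell from 2.54 ± 0.674 to 0.446 ± 0.186 CPM, a log2 FC of -2.51 (SE 0.38, adjusted p = 7.0e-06). BMP8B rose by 0.29 on the log2 scale, from 33.3 to 41.4 CPM (adjusted p = 0.0058). This call was lost without shUSP39 replicate 2, at 0.21 with an adjusted p of 0.074. BMP4 was not analysed here.

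Of 6 tested receptors and co-receptors, 2 rose, 1 fell and 3 did not pass. RGMB, a membrane-bound BMP co-receptor, had 636, 729 and 633 counts in pGIPZ-NC and 1627, 1575 and 1364 in shUSP39, a log2 FC of 1.20 (SE 0.08, adjusted p = 3.0e-12). The type II receptor gene ACVR2B rose from 29.4 ± 1.28 to 41.3 ± 1.15 CPM, with a log2 FC of 0.46 (adjusted p = 1.7e-05). The type I receptor gene BMPR1A fell from 226 ± 4.24 to 199.7 ± 2.92 CPM, with a log2 FC of -0.21 (adjusted p = 0.00019). BMPR2, the main type II receptor, was at 139.6 ± 9.78 and 135.5 ± 7.54 CPM (adjusted p = 0.363).

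The receptor-regulated SMAD genes were measured without a call in either direction. The log2 FC was -0.01 (SE 0.18, adjusted p = 0.964) for SMAD1, 0.02 (SE 0.49, adjusted p = 0.978) for SMAD5 and -0.20 (SE 0.21, adjusted p = 0.510) for SMAD9. The values of SMAD5 rested on 10 to 32 counts per library. SMAD4, the shared partner of these proteins, fell from 90.97 ± 2.23 to 73.9 ± 1.50 CPM, a log2 FC of -0.32 (SE 0.05, adjusted p = 2.7e-05). These are transcript levels, and the phosphorylation that activates SMAD proteins was not measured.

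The inhibitors of the pathway moved in both directions, with 4 of 9 tested genes higher, 2 lower and 3 not past the test. NOG, which encodes the secreted BMP antagonist noggin, had 945, 928 and 822 counts in pGIPZ-NC and 36, 37 and 26 in shUSP39. Its level fell from 28.8 ± 0.598 to 1.08 ± 0.176 CPM, 26.7-fold lower, with a log2 FC of -4.76 (SE 0.14, adjusted p = 1.5e-19). TWSG1, an extracellular BMP-binding protein, fell from 167 ± 9.06 to 119.96 ± 11.4 CPM, with a log2 FC of -0.51 (adjusted p = 1.0e-07). BAMBI, a membrane pseudoreceptor that is itself a BMP target, rose from 19.8 ± 1.47 to 41.5 ± 2.81 CPM, with a log2 FC of 1.05 (SE 0.08, adjusted p = 1.2e-10). The extracellular protein gene FSTL1 rose by 0.42 and the ubiquitin ligase gene SMURF2 by 0.25 on the log2 scale (adjusted p = 2.0e-06 and 0.0086). SMURF2 did not pass without pGIPZ-NC replicate 3 (0.18, adjusted p = 0.072). CHRD and SMAD6 were not analysed here.

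Other targets of BMP signalling were divided, with 2 of 6 tested genes higher, 2 lower and 2 not past the test. TBX2, a T-box repressor, rose from 1090 ± 34.2 to 1901 ± 105.3 CPM, with a log2 FC of 0.78 (SE 0.03, adjusted p = 7.1e-16). GATA2 rose from 6.67 ± 0.915 to 11.6 ± 0.796 CPM, with a log2 FC of 0.78 (SE 0.14, adjusted p = 7.0e-05). HAND2, a basic helix-loop-helix factor of heart and limb, fell from 12.9 ± 0.851 to 3.57 ± 0.854 CPM, with a log2 FC of -1.88 (SE 0.16, adjusted p = 5.6e-10). GATA3 had 30, 40 and 36 counts in pGIPZ-NC and 0, 0 and 2 counts in shUSP39, at least 11.6-fold lower against the floor of 3 counts per library (adjusted p = 5.4e-06).

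The E proteins are the partners of the ID proteins, and TCF3 was the E protein gene that was tested. The pGIPZ-NC libraries had 199.8 ± 4.73 CPM and the shUSP39 libraries 212 ± 4.84 CPM, with a log2 FC of 0.06 (adjusted p = 0.260), which did not pass.

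**Figure D3:**
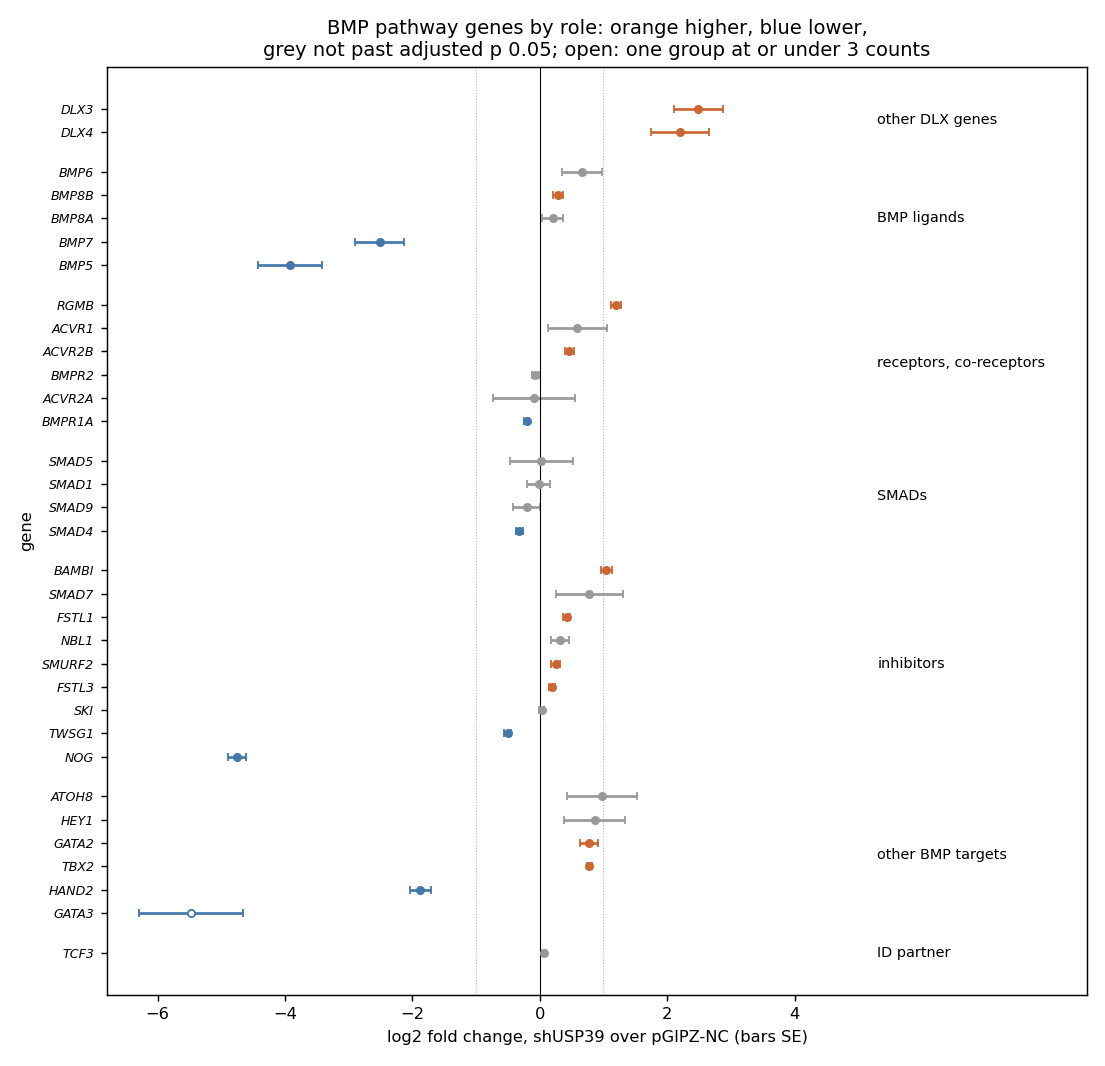
Log2 fold change with SE of 33 of the 36 tested pathway genes, grouped by role, with orange for higher, blue for lower and grey for genes not past the adjusted p of 0.05. Dotted lines mark 2-fold, and the open point is a gene with 3 or fewer counts in every library of a group. NOG stands at -4.76, both other DLX genes lie over 2-fold higher, and SMAD1, SMAD5 and SMAD9 lie around 0.

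The genes beside the 10 on the chromosomes were then measured, since position was not used to choose them. The next 3 protein-coding genes on each side, in order of start position, were taken at each of the 8 places. Of these 48 genes, 41 had a row and 28 were tested, of which 5 (17.9%) were higher, 6 (21.4%) were lower and 17 did not pass, against 16.1% and 17.5% of all tested genes. The number past the test was 7 without shUSP39 replicate 3. It was 4 with shUSP39 replicates 2 and 3 left out, a fit of 1 shUSP39 library whose spread comes from pGIPZ-NC alone, so this count is not directly comparable. The nearest genes beside DLX6 and DLX5 were SEM1, with a log2 FC of -0.01 (adjusted p = 0.939), and SDHAF3, with -0.19 (adjusted p = 0.063). Neither passed, though SDHAF3 did so in 4 of 13 alternatives.

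The neighbours past both the adjusted p and 2-fold were 4 in number. ASNS, the asparagine synthetase gene 827 kb from DLX5, had 12, 21 and 11 counts in pGIPZ-NC and 34, 49 and 38 in shUSP39, a log2 FC of 1.47 (SE 0.44, adjusted p = 0.010). RAPGEF4, 632 kb from DLX2, had 13, 21 and 24 counts against 35, 53 and 36, a log2 FC of 1.09 (SE 0.42, adjusted p = 0.049). ASNS did not pass without shUSP39 replicate 2 (adjusted p = 0.066). RAPGEF4 passed in 6 of 13 alternatives and did not pass without pGIPZ-NC replicate 1 or 2 or without shUSP39 replicate 2 or 3 (adjusted p = 0.080 to 0.222). RNF144A, 1611 kb from ID2, rose from 15.4 ± 1.04 to 32.6 ± 3.07 CPM, a log2 FC of 1.06 (SE 0.09, adjusted p = 9.1e-10). RSAD2, an interferon-stimulated gene 1781 kb from ID2, had 4, 0 and 0 counts in pGIPZ-NC and 486, 571 and 536 in shUSP39 (adjusted p = 3.4e-17).

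**Figure D4:**
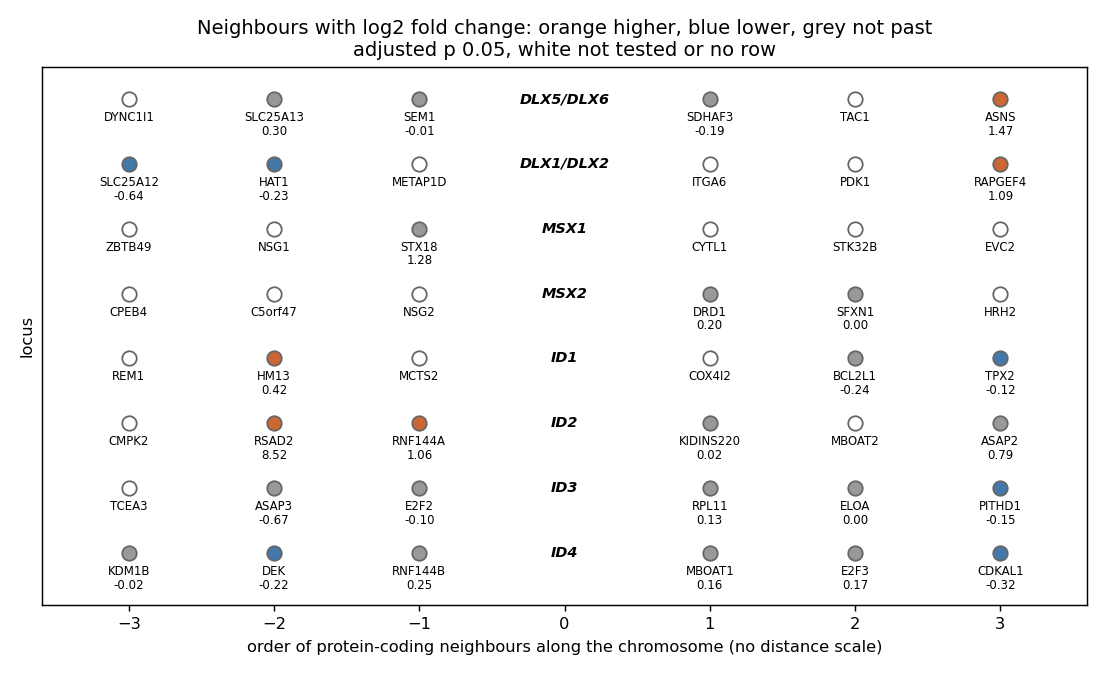
The next 3 protein-coding genes by start position on each side of the 8 places that hold the 10 genes, not to scale. The log2 fold change is under each tested gene. Orange marks genes that were higher, blue lower, grey not past the adjusted p of 0.05, and white genes that were not tested or had no row. The direct neighbours of DLX5 and DLX6 are grey, and the 4 orange genes over 2-fold are ASNS, RAPGEF4, RNF144A and RSAD2.

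The genes whose pattern over the 6 libraries was most like that of the 4 genes beyond 2-fold were found by the Euclidean distance of log2(CPM + 1) after each gene was centred on its own mean. For DLX5 these were ISG15, SH3BP4, IFIT2, COL12A1 and AKAP12, at distances of 0.112 to 0.321. ISG15 is an interferon-induced ubiquitin-like protein and IFIT2 an interferon-induced RNA-binding protein. For DLX6 they were PAGE1, KHDRBS3, USP53, LGI2 and TXNIP, at 0.210 to 0.233. For MSX1 they were PNMA2, TMX4, ULBP2, CHDH and GJA3, at 0.321 to 0.426, and for MSX2 they were TSPAN18, CRABP2, CHMP4C, UTRN and SOCS3, at 0.162 to 0.243. All 20 were higher in shUSP39, as were the 4 genes they were matched to. With 6 libraries in 2 groups, a small distance mainly reflects an equal difference between the groups on this scale. DLX5 had 0 counts in pGIPZ-NC, so its difference on this scale is limited by the 1 added to CPM. DLX5 was at least 70.0-fold higher and ISG15 7.96-fold higher, so the list for DLX5 depends on that added value.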

How the data were processed

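The authors deposited 1 table of raw read counts per RefSeq messenger RNA for the 6 libraries. The submitters' processing notes list HISAT2, Cufflinks and hg19, with no role or version, and the counter, its annotation and its use of strand are not given in the sources used here. The deposited group means, folds, p-values and q-values are the authors' comparison and were not used. Counts were summed from 21368 rows to 16571 symbols (46 date-like symbols were replaced through the accession and 1 was left). CPM is the count per 1000000 of the library total. Differences were fitted with edgeR 4.0.16 in R 4.3.3 on all 6 libraries (filterByExpr, TMM, robust quasi-likelihood, group only), with Benjamini-Hochberg adjustment over 10695 genes, calls at an adjusted p under 0.05 and, where stated, over 2-fold. DESeq2 1.42.0 was an alternative. The fit was tested on simulated data. The SE is the absolute log2 fold change over the square root of F.

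The genes and lists were chosen with earlier results of these data known. Named were the 10 genes, per role list the genes past 2-fold or up to the 3 largest rises and falls past the adjusted p, the SMAD genes, BMPR1A and BMPR2, neighbours past 2-fold and those flanking DLX5 and DLX6, and the 5 nearest patterns to each of the 10 genes beyond 2-fold. A result of 1 role list, of genes downstream of DLX or MSX factors, is not reported here, though its genes are counted in the totals. The labels list the libraries as separate samples, and the study calls its RNA-seq samples biologically independent. The p-values measure the spread between these samples. Whether the replicates came from separate infections is not stated, so variation between infected and selected populations may not be covered. No libraries of a group agreed within counting noise (the smallest chi-square over its degrees of freedom was 4.74). Deviations from the group means were weakly correlated between same-numbered libraries (r of 0.0050 to 0.069). Between differently numbered libraries r was -0.052 to 0.030. The numbers were not used as pairs in the main fit. Coordinates, lengths and promoters came from GENCODE release 44 mapped to GRCh37.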

Additional observations from a re-analysis of the deposited data

How the results depend on the processing

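Of the 10 genes, DLX1, DLX2, DLX6, MSX1, MSX2 and ID3 kept their direction and passed the adjusted p in all 14 alternatives, as did DLX5 in the 13 in which it was tested, and ID1 passed in none. The 10 genes were chosen with this contrast known, so these refits of it describe the genes and are not a test of them. Log2 fold changes lay between 1.28 and 1.45 for DLX6, 2.23 and 2.57 for MSX1, 1.303 and 1.55 for MSX2, and 0.45 and 0.53 for ID3. With a minimum of 10 counts in every library DLX5 was not tested, and the genes called over all genes numbered 471 in place of 728, with 9556 genes tested. Leaving out 1 library gave 677 to 836 called genes, 19 to 22 pathway genes (20 in all libraries) and 7 to 13 neighbours (11 in all libraries). The neighbours past the test were 4 without shUSP39 replicates 2 and 3, an alternative chosen after seeing the data in which 1 shUSP39 library is assumed to vary like pGIPZ-NC, and 19 of 48 tested with 5 genes on each side. With the replicate block there were 745 called genes, 21 pathway genes and 13 neighbours, and ID4 passed with a lower level (-0.09), where the replicate numbers alone do not show that the libraries were paired. No called value among the 10 genes changed sign. Values that were not called did: SMAD1 under upper-quartile scaling (0.029) and with 1 library left out (-0.107 to 0.062), SMAD5 with the replicate block (-0.062), with 1 library left out (-0.27 to 0.40) and without shUSP39 replicates 2 and 3 (-1.26), BMPR2 without those replicates (0.020), and SEM1 under upper-quartile scaling (0.038), with 1 library left out (-0.053 to 0.016) and without those replicates (0.076). Of all genes past the adjusted p, 48.0% were higher, and 58.0% under upper-quartile scaling. Without a filter, all genes had a median log2 fold change of 0.12. The cause of these changes was not tested.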
